A study of Mus musculus with 6 samples.

Results

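The common gamma chain, encoded by Il2rg, is shared by the receptors for IL-2, IL-4, IL-7, IL-9, IL-15 and IL-21, and each of these receptors adds at least one chain of its own. The genes described here are Il2rg, its partner chains Il2ra, Il2rb, Il15ra, Il4ra, Il7r, Il9r and Il21r, and Il13ra1, which pairs with the IL-4 receptor α chain when the gamma chain does not. They were chosen by name, 9 of the 35896 genes with a transcript in the files. A total of 8 were listed in the gene-level table, which has 11242 entries, and Il13ra1 was taken from the estimated counts of its transcripts alone. For uniformity, levels of all 9 come from transcript counts summed by gene.

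RNA was sequenced from 3 WT and 3 Cul5 cKO cultures of C57BL/6 CD4+ T cells. Naïve cells from spleen and lymph nodes were held for 48 h in Th9 conditions, that is T cell receptor and CD28 stimulation with IL-4, TGF-β and an antibody against IFN-γ, which both genotypes received. In the study's methods the WT mice were Cul5fl/fl littermates without Cre, and the cKO mice were Cul5fl/fl CD4-Cre animals of the same age range (8 to 10 weeks), in which Cul5 is deleted from thymocyte stages onwards and so also in CD8 T cells. The sources do not tie each sample to a separate mouse, so p-values measure the spread between these samples, which may be technical.

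Receptors of this family have no kinase of their own. JAK1 sits on the signalling chain that pairs with the gamma chain, and JAK3 on the gamma chain itself. Ligand binding leads mainly to STAT5 for IL-2, IL-7, IL-9 and IL-15, to STAT6 for IL-4 and IL-13, and to STAT3 for IL-21. Cullin 5 is the scaffold of an E3 ubiquitin ligase that uses SOCS-box proteins such as CIS as substrate receptors. The paper proposes that Cullin 5 and CIS act after T cell receptor and CD28 stimulation to limit IL-4 receptor signalling, by degradation of phosphorylated JAK1. The paper also found the IL-4 receptor α chain precipitated with CIS in a T cell line. Its phosphorylated form was higher in Cul5-deficient CD4+ T cells than in WT cells. As an alternative, the paper proposes that this chain might itself be a direct target. Receptor protein was not tested here. The comparison asks how receptor mRNA levels differ between cultures with and without Cul5. In bulk RNA, fewer cells expressing a gene and less RNA per cell cannot be told apart.

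Depth ranged from 3944803 estimated counts in WT replicate 3 to 23454552, and the 5 other libraries held at least 23111689. Cul5 stood at 64.4, 69.3 and 65.03 CPM (counts scaled to the library size after TMM adjustment) in the WT samples and at 10.6, 14.2 and 13.1 CPM in the Cul5 cKO samples, 19.1% of WT (edgeR's quasi-likelihood test, adjusted p = 0.000992), so its mRNA went with the labels. Summed CPM of 8 CD4 T cell markers, led by Lck and Cd4, ran from 1778 to 1972 in WT and from 1609 to 1750 in Cul5 cKO samples. Both replicate 1 samples stood apart from the other replicates in many genes. Across the 12925 genes tested, 133 passed an adjusted p under 0.05, and that number became 1688 when the model held a term for replicate 1 against the rest and 1153 of 13055 when replicates 2 and 3 were used alone. The labels do not set replicate 1 apart, so the term for it rests on these same values and its p-values may be too small.

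To show what the Il4ra counts hold, the splice junction that separates its leading annotated transcripts is printed first. Il4ra lies at chr7:125552120-125579474 on the plus strand of GRCm38. The transcript Il4ra-205 has an added exon of 114 bases, chr7:125571934-125572047, that Il4ra-201 lacks, and the first in-frame stop (in capitals) falls in it at chr7:125571951-125571953. Both lines run 5′ to 3′, with the last 30 bases of the shared coding exon followed by the next 20 bases of each transcript.
Il4ra-205: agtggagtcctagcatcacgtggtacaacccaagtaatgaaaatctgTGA
Il4ra-201: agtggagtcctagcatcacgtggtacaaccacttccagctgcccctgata
The reading frame of Il4ra-205 ends after 230 codons, the stop not counted, against 810 for Il4ra-201. In the mouse, inclusion of an exon before the transmembrane segment is known to give a soluble IL-4 receptor α chain that binds IL-4 and does not signal. The annotation marks Il4ra-205 as a candidate for nonsense-mediated decay.

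Il2ra, Il2rb, Il2rg, Il4ra and Il21r were abundant, while Il7r, Il15ra and Il9r were low and Il13ra1 was near 0. In TPM, a level per transcript length that can be compared between genes, the WT means ± SD (n = 3) were 503 ± 52.3 for Il2ra, 343 ± 13.7 for Il2rb, 231 ± 36.0 for Il2rg, 224 ± 28.5 for Il4ra and 98.7 ± 5.40 for Il21r. The low group followed at 9.41 ± 3.20 for Il7r, 3.84 ± 0.175 for Il15ra and 3.63 ± 1.22 TPM for Il9r. In this order the WT ranges of Il2rg and Il4ra overlapped, as did those of Il15ra and Il9r, and the ranges of all other neighbours were separate. The Cul5 cKO samples had the same order, with Il2rg and Il4ra as the only overlapping neighbours. There Il9r (1.04 to 1.25 TPM) lay below Il15ra (2.91 to 6.41 TPM).

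**Figure D1:**
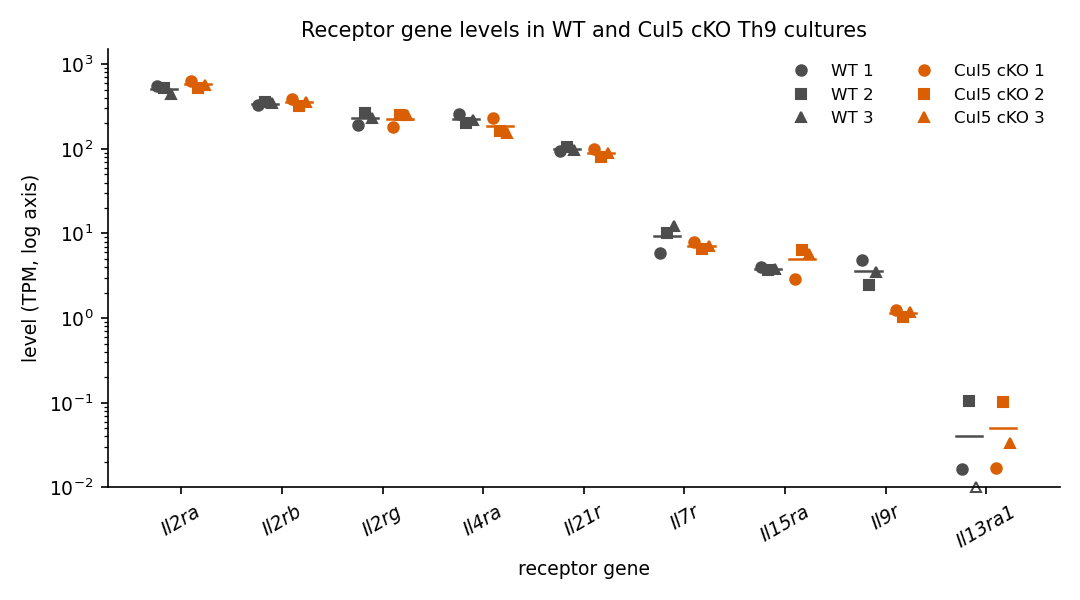
TPM (log axis) of the 9 receptor genes in each WT (grey) and Cul5 cKO (orange) sample, with symbols for the replicate number and a bar at the mean of 3 samples. An open symbol on the lower edge stands for 0. The genotypes overlap for every gene but Il9r, whose WT samples lie between 2.47 and 4.90 TPM and whose Cul5 cKO samples lie between 1.04 and 1.25 TPM.

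Between genotypes, none of the 8 receptor genes tested passed an adjusted p under 0.05 in edgeR (0 of 8, against 1.03% of all genes tested). At an unadjusted p under 0.05 there was 1, Il9r, where 21.3% of all genes passed. DESeq2 called 1, again Il9r, where it called 6.09% of all genes. The groups did not overlap for 1 of the 8, where 27.5% of all genes had separate groups. A total of 4 had a higher and 4 a lower estimate in Cul5 cKO samples, with a median log2 fold change of -0.06 beside -0.01 over all genes tested.

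Il2rg, the shared chain (chrX:101264378-101268255, minus strand), was measured at 201.3, 260 and 247 CPM in WT and at 189, 256 and 266 CPM in Cul5 cKO samples. The lowest sample of each genotype was replicate 1, and the ranges overlapped almost entirely. The log2 fold change of Il2rg was 0.00 with an SE of 0.150 (adjusted p = 0.991, 95% interval -0.35 to 0.35; the ± of later fold changes is also the SE), and with replicate 1 as a term it was -0.01 with an interval of -0.14 to 0.12. A stretch of 730 bases is identical in the readthrough gene Gm20489, which was listed at 0 counts in all 6 samples.

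Il2ra encodes CD25, the α chain that raises the affinity of the IL-2 receptor, and naïve cells were depleted of CD25+ cells before culture. It was the most abundant of the 9 in TPM, and stood at 1591, 1431 and 1388 CPM in WT and 1823, 1508 and 1708 CPM in Cul5 cKO samples. The highest WT sample, replicate 1, was above the lowest Cul5 cKO sample, replicate 2, so the groups overlapped. The log2 fold change was 0.19 ± 0.0865 (adjusted p = 0.257, interval -0.01 to 0.39). It stayed between 0.13 and 0.27 under every alternative, and none of them called it, the lowest adjusted p being 0.0660 with replicate 1 as a term. A stretch of 158 bases in an Il2ra transcript is 96.2% identical in Echs1.

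Il2rb, the signalling β chain shared by the IL-2 and IL-15 receptors (chr15:78479256-78495271, minus strand), stood at 774, 770 and 790 CPM in WT. In Cul5 cKO samples it stood at 880, 730 and 824 CPM. The WT values lay inside the Cul5 cKO range, and the log2 fold change was 0.06 ± 0.0751 (adjusted p = 0.679, interval -0.11 to 0.24). On the linear scale that interval ran from 0.923-fold to 1.18-fold.

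Il15ra, which presents IL-15 to the β and gamma chains, starts 12096 bases after the end of Il2ra on the same strand of chromosome 2, with no coding gene between. It was read at 83.0, 73.9 and 16.0 estimated counts in WT samples and 66.0, 105 and 89.9 in Cul5 cKO samples, or 3.54, 3.20 and 4.05 CPM against 2.87, 4.60 and 3.999 CPM. The log2 fold change was 0.11 ± 0.245 (adjusted p = 0.829), and 0.29 with replicates 2 and 3 alone (adjusted p = 0.483). At this depth the interval, -0.46 to 0.69, reached up to 1.61-fold. Of the 2 neighbours, Il2ra was thus the highest of the 9 in TPM and Il15ra was in the low group.

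Il4ra, the chain that binds IL-4 and, with Il13ra1, IL-13, was counted at 711, 517 and 580 CPM in WT and 641, 446 and 435 CPM in Cul5 cKO samples. Replicate 1 was the highest of its genotype in both, by 0.46 on the log2 scale over replicates 2 and 3, and Cul5 cKO replicate 1 was above WT replicates 2 and 3. Within replicates 2 and 3, both Cul5 cKO samples were below both WT samples. With all 6 samples the log2 fold change was -0.25 ± 0.175 (adjusted p = 0.454, interval -0.66 to 0.16). With replicate 1 as a term it was -0.26 ± 0.0642 and passed the test (adjusted p = 0.0397, where 13.1% of all genes passed). With replicates 2 and 3 alone it was -0.31 ± 0.0725 and did not (adjusted p = 0.0506, where 8.83% passed). Leaving out WT replicate 1 gave -0.11 and leaving out Cul5 cKO replicate 1 gave -0.45, neither called, so the call of Il4ra was made in 1 of these fits and the estimate moved with the replicate 1 samples.

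Il13ra1 (chrX:36112110-36171259, plus strand) completes the type II IL-4 receptor, the form found mainly on non-lymphoid cells. It had 1, 6 and 0 estimated counts in WT and 1, 6 and 2 in Cul5 cKO samples, and was too low to be tested. A level of 3 counts, 0.128 to 0.130 CPM in the 5 deeper libraries and 0.760 in WT replicate 3, is the limit that a count of 0 allows. Il13ra2, the decoy receptor for IL-13, was at 0 in all 6 samples.

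Il7r, the α chain for IL-7 and, with Crlf2, for TSLP, is high on naïve T cells and falls with activation. It had 9.42, 19.4 and 29.9 CPM in WT and 13.7, 11.3 and 13.4 CPM in Cul5 cKO samples. The WT samples spread over a wider range than the Cul5 cKO samples, which lay between the lowest and the middle of them. The log2 fold change was -0.53 ± 0.359 (adjusted p = 0.436, interval -1.37 to 0.31). It was -0.43 with replicate 1 as a term (adjusted p = 0.378), -0.92 ± 0.211 with replicates 2 and 3 alone (adjusted p = 0.0501) and -0.17 without WT replicate 3, the shallow library, in which Il7r had 118 counts. Without WT replicate 1 it was -0.89 (adjusted p = 0.0714). Crlf2 itself had a log2 fold change of 0.17 ± 0.150 (adjusted p = 0.557).

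Il9r, the private chain of the receptor for IL-9, the cytokine that names these cells, lies at chr11:32187541-32200279 on the minus strand. It was read at 189, 83.2 and 18.0 estimated counts in WT and at 49.5, 37.3 and 42.0 in Cul5 cKO samples, which after scaling to depth are 8.07, 3.60 and 4.55 CPM against 2.15, 1.63 and 1.87 CPM. The genotypes did not overlap, with all 3 Cul5 cKO samples below the lowest WT sample. Its log2 fold change was -1.55 ± 0.341, that is 0.342-fold of WT with an interval of 0.197-fold to 0.594-fold, and edgeR's adjusted p of 0.0852 did not pass (unadjusted p = 0.00230). The exact permutation test gave p = 0.1, the smallest that 3 samples against 3 allow. Of the 12925 genes tested, 86 had a larger negative estimate.

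Il9r depended on the model. DESeq2 called it (log2 fold change -1.54, adjusted p = 0.00559), as did the fit with replicate 1 as a term (-1.46 ± 0.243, adjusted p = 0.0143), whereas replicates 2 and 3 alone gave -1.18 ± 0.307 with an adjusted p of 0.0629. Leaving out one sample at a time gave -1.79 to -1.09, the smallest without WT replicate 1, which had the highest level, and no call. Genes of mast cells, which can carry this receptor, and of basophils were summed over 6 markers to 0.598 to 2.53 CPM in WT samples and to 0.738, 36.0 and 2.36 CPM in Cul5 cKO samples, with Cpa3 and Mcpt8 highest and Tpsb2 at 0. They were highest in the sample with the lowest Il9r, Cul5 cKO replicate 2, and without it the log2 fold change of Il9r was -1.45 (adjusted p = 0.211). The part of mast cells and basophils in the Il9r level was not tested.

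Il21r, the private chain for IL-21, begins 23954 bases after the end of Il4ra, on the same strand and with no coding gene between. It had 143, 150 and 150 CPM in WT and 147, 122 and 136 CPM in Cul5 cKO samples. Cul5 cKO replicate 1 lay within the WT range and the other 2 below it. The log2 fold change was -0.13 ± 0.0806 (adjusted p = 0.413, interval -0.31 to 0.06), -0.13 with replicate 1 as a term (adjusted p = 0.286) and -0.21 ± 0.0695 with replicates 2 and 3 alone (adjusted p = 0.0996). In the authors' gene-level table the difference had the other sign, 0.06 on the log2 scale. WT replicate 3 was the lowest sample there, at 6.01 log2 CPM. That entry ordered the samples as the TPM of the transcript Il21r-201 did, and not as the sum over transcripts did. Il21r-201 stood at 45.6, 47.9 and 35.1 TPM in WT and at 49.2, 40.1 and 42.6 TPM in Cul5 cKO samples. Whether the authors' entry counts all Il21r transcripts was not tested. Il4ra and Il21r are neighbours and both had negative estimates, neither of which passed with all 6 samples.

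B cell genes, from cells that also carry Il4ra and Il21r, were summed over 5 markers to 15.04 to 19.2 CPM in WT and to 6.49, 9.86 and 48.0 CPM in Cul5 cKO samples, with Cd79b and Cd79a highest. Cul5 cKO replicate 3, the highest, had the lowest Il4ra of all samples. Without it the log2 fold changes were -0.15 for Il4ra and -0.13 for Il21r. NK cell genes (5 markers, with Ncr1 and Klra8 at 0 and Eomes and Klre1 highest) ranged from 4.45 to 9.91 CPM in WT and from 6.15 to 13.2 CPM in Cul5 cKO samples. Nearly all of that sum was Eomes, with a mean of 8.55 CPM beside 0.260 CPM for Klre1. Myeloid genes (7 markers, Itgam and Cd68 highest) ranged from 6.15 to 10.7 and from 5.41 to 14.4 CPM, CD8 T cell genes (Cd8b1 and Cd8a) from 5.75 to 6.54 and from 4.30 to 11.7 CPM, and erythroid genes (4 markers, Alas2 and Hbb-bs highest) from 0 to 0.452 and from 0.375 to 1.44 CPM. The part of these cells in the receptor levels was not tested.

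**Figure D2:**
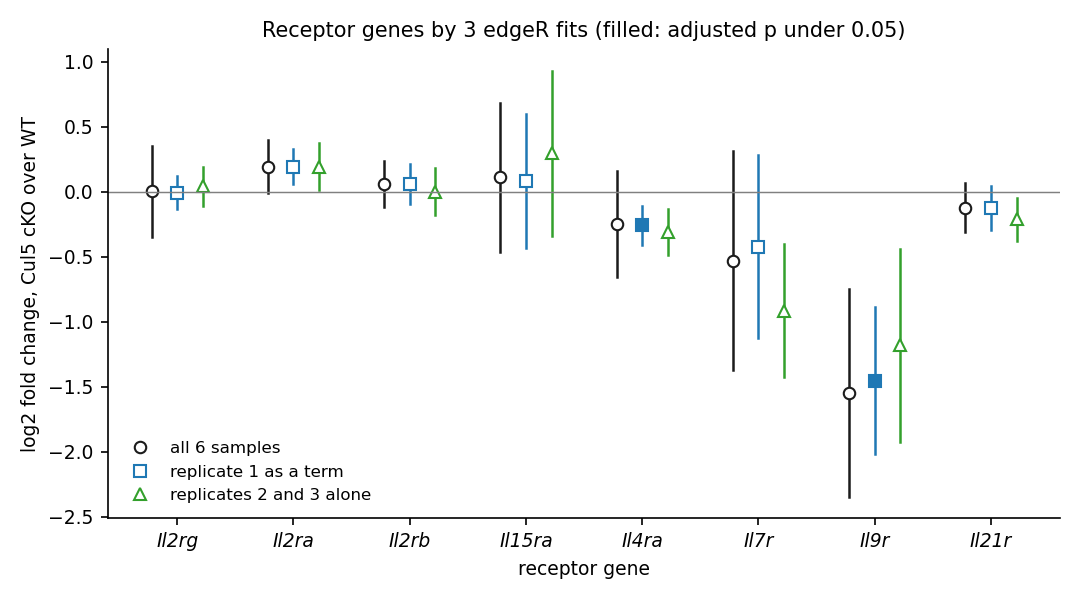
Log2 fold change of Cul5 cKO over WT with its 95% interval for the 8 receptor genes tested, from edgeR with all 6 samples (circles), with replicate 1 as a term (squares) and with replicates 2 and 3 alone (triangles). Filled symbols passed an adjusted p under 0.05, which held for Il4ra and Il9r with replicate 1 as a term and for no gene in the other 2 fits.

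How the chains stood to each other within a sample was compared by ratios of TPM. Il2ra to Il2rb was 1.67, 1.46 and 1.28 in WT and 1.64, 1.62 and 1.63 in Cul5 cKO samples (exact permutation test on log2 ratios, two-sided, p = 0.4). Il4ra to Il2rg, the chains of the type I IL-4 receptor, was 1.32, 0.751 and 0.930 in WT and 1.28, 0.657 and 0.620 in Cul5 cKO samples (exact permutation p = 0.5). In both genotypes this ratio was highest in replicate 1, where Il4ra was high and Il2rg low. Il4ra entered the ratios as the sum over its transcripts, of which Il4ra-201, for the full-length receptor, held 21.3% on average. The ratios are thus of gene totals and not of full-length receptor chains. The sum of the gamma chain partners Il2rb, Il4ra, Il7r, Il9r and Il21r was 3.55, 2.53 and 2.90 times Il2rg in WT and 4.003, 2.29 and 2.41 times in Cul5 cKO samples (exact permutation p = 0.8). None of the 3 ratios separated the genotypes.

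Among transcripts, Il4ra-205, with the added exon printed above, held 72.6%, 73.0% and 73.3% of the Il4ra TPM in WT and 72.0%, 74.0% and 74.6% in Cul5 cKO samples. The transcript for the full-length receptor, Il4ra-201, held 21.3% on average. The share of Il4ra-205 was thus the leading one in every sample, and it differed between genotypes by 0.531 percentage points (exact permutation p = 0.5). kallisto divides a read between transcripts that share its sequence, and Il4ra-201 also extends 1507 bases further at its 3′ end, so the share reflects reads over that end as well as over the added exon. Which of these sets it was not tested. The annotated antisense gene Gm44876 overlaps the added exon and has no transcript in the files, and without strand its reads could not be told apart from those of Il4ra.

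**Figure D3:**
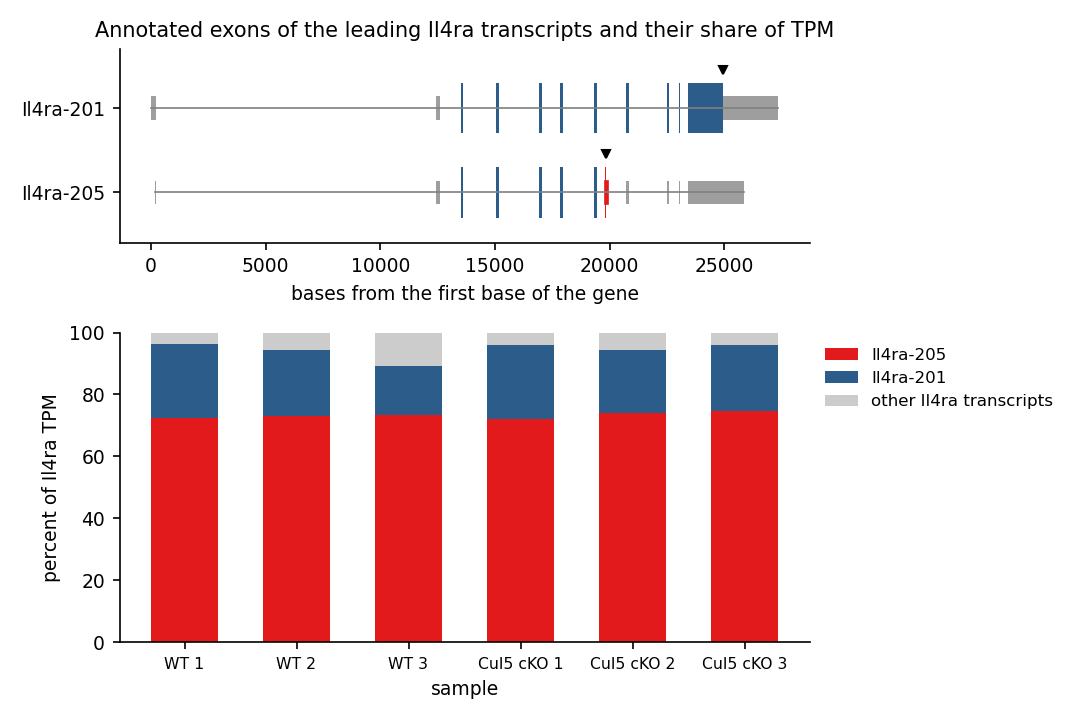
Above, exons (boxes), coding parts (tall boxes) and stop codons (triangles) of Il4ra-201 and Il4ra-205 by distance in bases from the first base of the gene, to scale, with the added exon of Il4ra-205 in red. Below, the percent of Il4ra TPM held by each transcript in the 6 samples, where Il4ra-205 takes between 72.0% and 74.6%.

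Il21r also divided its reads. Il21r-201, with a frame of 529 codons, held 48.2%, 45.7% and 36.2% of the TPM in WT and 49.9%, 49.8% and 48.2% in Cul5 cKO samples. The lowest share was that of WT replicate 3, the shallow library, and without it the difference between the means fell from 5.93 to 2.34 percentage points. The groups were only just separate, as the highest WT and the lowest Cul5 cKO share were both 48.2% (exact permutation p = 0.1). Il21r-202 lacks an exon of 97 bases, chr7:125629738-125629834, which cuts the frame to 268 codons, and it held 35.1% on average. Il2rb-201 and Il2rb-202 encode the same 539 codons and held 61.2% and 38.8%. Il21r-201 extends 298 bases further at its 3′ end than Il21r-202, and Il2rb-201 extends 2068 bases further than Il2rb-202. As for Il4ra, these shares therefore also reflect reads over those ends. For Il2rb-201 the share did not separate the genotypes (exact permutation p = 0.8).

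In the low genes the shares rested on few reads. Il9r-202 had 49.3, 16.7 and 12.1 estimated counts in WT and 2.21, 1.27 and 0.409 in Cul5 cKO samples, which was 37.7%, 26.9% and 73.3% of the Il9r TPM against 6.77%, 4.68% and 1.31%. Of the other transcripts with a full frame, Il9r-205 had 110, 50.1 and 1.83 counts in WT and 26.4, 26.2 and 21.5 in Cul5 cKO samples. Il9r-204 had 0, 13.4 and 0 counts in WT and 11.2, 6.85 and 11.2 in Cul5 cKO samples, where it held 39.8%, 29.3% and 42.0% of the TPM. Il9r-202 was thus under 3 counts in each Cul5 cKO sample, and its share was separate between the genotypes (exact permutation p = 0.1, the smallest possible). Il15ra-210, the leading transcript of Il15ra by its mean over the 6 samples but not in WT replicate 1 or any Cul5 cKO sample, held 21.9%, 39.4% and 48.9% in WT and 13.2%, 3.68% and 18.9% in Cul5 cKO samples from 5.62 to 33.1 counts (exact permutation p = 0.1). Il7r-201 held 53.1%, 73.9% and 92.3% in WT and 65.8%, 63.1% and 62.4% in Cul5 cKO samples (exact permutation p = 0.6).

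Because several of these genes answer to STAT factors, their promoters were read for STAT-type letters. RefSeq windows of GRCm38.p6, from 250 bases before to 50 after the start, matched 8 of the 9 genes. The spaced palindrome TTCNNNGAA, read the same on both strands and typical of STAT5, occurred in 1 of them, Il7r, and in 8.30% of 32851 promoters. TTCNNNNGAA, typical of STAT6, occurred in none of the 8 and in 6.95% of all promoters. The Il7r window, chr15:9529827-9530126 on the minus strand, is printed as the one that holds a match, in capitals, with its first base at -142 from the start.
Il7r: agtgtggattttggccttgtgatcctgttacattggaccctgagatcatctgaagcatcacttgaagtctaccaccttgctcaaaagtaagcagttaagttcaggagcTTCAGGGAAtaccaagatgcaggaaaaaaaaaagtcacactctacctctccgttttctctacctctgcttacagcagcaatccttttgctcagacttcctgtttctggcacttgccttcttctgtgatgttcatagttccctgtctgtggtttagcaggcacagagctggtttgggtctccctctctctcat
A match describes the letters only, and binding was not measured here.

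The other genes of the pathway were taken as a list of 60 ligands, further receptor chains, kinases, STATs, adaptors, brakes, trafficking factors and targets, of which 53 could be tested. Of these, 2 rose and 1 fell in edgeR (5.66%, against 0.611% of all genes that rose and 0.418% that fell). The estimate was higher in 33 and lower in 20, with a median log2 fold change of 0.09. The groups did not overlap for 22 of the 53 (41.5%, against 27.5%), 15 of them higher and 7 lower (13.9% and 13.5% of all genes). The list was chosen with earlier results of these data known and holds Il9, so these shares do not measure an excess over all genes.

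Of the 8 ligands of the family, Il2, Il4, Il9 and Il13 could be tested, and Il7, Il15, Il21 and Tslp were too low. Il9, the ligand of Il9r, stood at 355, 308 and 298 CPM in WT and 729, 804 and 1021 CPM in Cul5 cKO samples, and rose with a log2 fold change of 1.41 ± 0.134 (adjusted p = 0.0112). The call was lost without WT replicate 2 (adjusted p = 0.0771) or WT replicate 3 (0.0816) and in the 3 limma fits (0.0509 to 0.0832), with log2 fold changes of 1.36 to 1.43. Il4 had 13, 14 and 2 counts in WT and 20, 55 and 41 in Cul5 cKO samples, with separate groups in CPM and a log2 fold change of 1.57 ± 0.445 that did not pass (adjusted p = 0.122). Il13 was at 0.470, 2.38 and 1.77 CPM in WT and 1.48, 7.76 and 5.47 CPM in Cul5 cKO samples (1.71 ± 0.740, adjusted p = 0.238). Both were highest in Cul5 cKO replicate 2, the sample with the 36.0 CPM of mast cell and basophil genes, and without it their log2 fold changes were 1.24 and 1.22 with adjusted p of 0.274 and 0.486. Il13 passed with replicate 1 as a term (1.61 ± 0.249, adjusted p = 0.0115) and both passed with replicates 2 and 3 alone (adjusted p = 0.0451 for Il4 and 0.0349 for Il13). Il2 was at 0.173 and 0.0885 CPM in the replicate 1 samples and at 3.42 to 8.57 CPM in the others (0.97 ± 1.297, adjusted p = 0.703). Within replicates 2 and 3 both Cul5 cKO samples were above both WT samples in Il2, with a log2 fold change of 0.87 ± 0.235 (adjusted p = 0.0675). The ligand Il9 and its receptor gene Il9r thus had estimates of opposite sign, and in edgeR with all 6 samples and no further term the ligand passed and the receptor did not.

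Of the kinases, Jak1 stood at 407, 413 and 441 CPM in WT and 381, 350 and 331 CPM in Cul5 cKO samples, with separate groups and a log2 fold change of -0.25 ± 0.0709 (adjusted p = 0.124). Jak3, which binds the gamma chain, went the other way, from 220, 223 and 222 to 259, 283 and 257 CPM (0.26 ± 0.0615, adjusted p = 0.0937). With replicate 1 as a term both passed (adjusted p = 0.0489 and 0.0279), and DESeq2 called Jak3 (0.28, adjusted p = 0.00915). Stat5a, Stat5b and Stat6 had log2 fold changes of -0.19, -0.12 and 0.09 with overlapping groups and adjusted p of 0.617, 0.480 and 0.564. Jak1 also passed with replicates 2 and 3 alone (adjusted p = 0.0392). No kinase or STAT gene passed in edgeR with all 6 samples and no further term.

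Cish, which encodes CIS and is induced by STAT5, had 637, 640 and 612 CPM in WT and 661, 714 and 675 CPM in Cul5 cKO samples, with a log2 fold change of 0.12 ± 0.0556 (adjusted p = 0.277). All of its Cul5 cKO samples were above its WT samples in CPM, but in TPM the groups overlapped (267 to 364 in WT, 283 to 323 in Cul5 cKO samples), and the direction turned in limma on the authors' log2 CPM (-0.0066) and on log2 TPM (-0.027). Among the 8 brakes tested, 6 had a higher and 2 a lower estimate and none passed in edgeR. For 6 of the 8 the groups did not overlap in CPM (75%, against 27.5% of all genes), 5 of them higher and 1 lower. The lower one, Ptpn1, overlapped in TPM as Cish did (143 to 171 in WT, 131 to 146 in Cul5 cKO samples). An unadjusted edgeR p under 0.05 was found for 4 of the 8, all higher (50%, against 21.3% of all genes). The brakes are part of the list chosen with earlier results known, so these shares do not measure an excess over all genes. Among 15 target genes, Lif, a cytokine of the IL-6 family, rose from 52.5, 59.8 and 55.7 to 89.4, 109 and 113 CPM (0.89 ± 0.105, adjusted p = 0.0170), and Pim2, a survival kinase, fell from 51.5, 58.2 and 57.9 to 34.3, 40.4 and 35.9 CPM (-0.60 ± 0.0903, adjusted p = 0.0347). Both lost their call without WT replicate 2, WT replicate 3, Cul5 cKO replicate 2 or Cul5 cKO replicate 3 (adjusted p of 0.0678 to 0.1001 for Lif and 0.0678 to 0.177 for Pim2), and Pim2 also without Cul5 cKO replicate 1 (0.0623) and with counts scaled from TPM (0.0858). In limma Lif passed on log2(TPM + 1) alone (0.0497), and Pim2 in none of the 3 fits (0.141 to 0.175). Of the 9 genes of receptor trafficking and turnover, none passed.

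**Figure D4:**
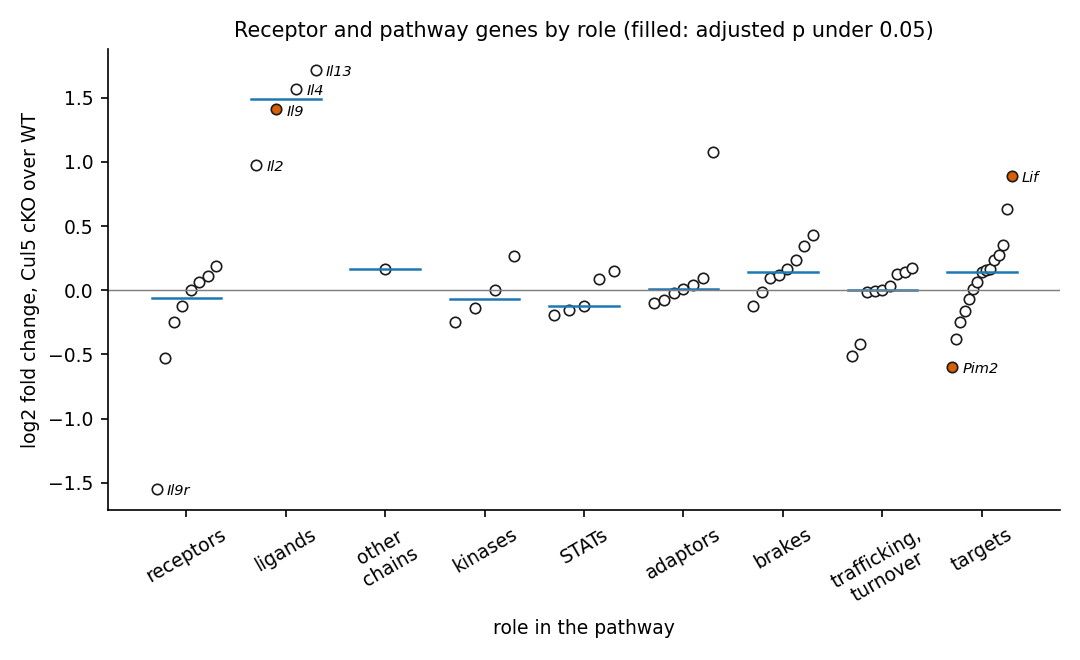
Log2 fold change of Cul5 cKO over WT for the 8 receptor genes and the 53 pathway genes tested, by role, with a bar at each median. Filled symbols, for Il9, Lif and Pim2, passed an adjusted p under 0.05, and Il9r is the lowest point.

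The genes whose course over the 6 samples came closest to that of Il4ra, by the root mean square difference of log2 CPM centred on each gene's mean, were Rnf125 (0.0316), Tmtc4 (0.0384) and Flywch1 (0.0427). They were the closest of 8689 genes with a mean of at least 10 CPM. Rnf125 had 15.5, 11.2 and 12.4 CPM in WT and 14.6, 9.60 and 9.65 CPM in Cul5 cKO samples, high in both replicate 1 samples as Il4ra was.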

How the data were processed

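The study sequenced poly-A RNA (50 bp, single end). The authors ran kallisto 0.46.2 on Ensembl transcripts (GRCm38) and deposited, for each sample separately, estimated counts and TPM of 119414 transcripts. A table of log2 CPM per gene, scaled by TMM in edgeR 3.34.0 (version per the labels), was also deposited, with the authors' own fold changes and p-values. Those p-value and log2 fold change columns, deposited by the authors, were not used. Here, transcripts were assigned to genes with GENCODE M21 (97.7% matched), and summed estimated counts were rounded and tested in R 4.3.3 with edgeR 4.0.16 (filterByExpr defaults, TMM, quasi-likelihood test, Benjamini-Hochberg over 12925 genes, called at an adjusted p under 0.05). The script was tested on simulated data. Errors of log2 fold changes are SE, and intervals are 95% and cover the spread between samples. Permutation tests were exact and two-sided (scipy 1.17.1), with values not adjusted over the 3 ratios or over the transcript shares.

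Named genes were Cul5, the 9 receptors, pathway genes that passed or carry the ligands, kinases and STATs of the receptors, the 3 genes most like Il4ra and Il2ra (those for Il2ra are not reported here), and the 2 highest markers of each cell type list. Members, lists and named genes were chosen with earlier results of these data known. Alternatives used DESeq2 1.42.0, limma 3.58.1, other filters, scalings and pseudocounts, a replicate block, replicate 1 as a term, replicates 2 and 3 alone and each sample left out. Near copies were searched with blastn 2.17.0. Promoter sequences are from RefSeq and the Il4ra junction from GENCODE. Protein sequences were not used here.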

Additional observations from a re-analysis of the deposited data

How the results depend on the processing

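Depth limits Il15ra, Il9r and Il13ra1, which WT replicate 3 measured with 16.0, 18.0 and 0 counts. Of 136 alternative values for the receptor fold changes, 120 kept their sign and their side of the threshold, and of 72 for the ratios and shares, where only the sign was compared, 66 kept it. The alternative on the authors' log2 CPM may not count all transcripts of Il4ra and Il21r. There Il4ra stood at 7.94, 7.36 and 7.13 log2 CPM in WT, lowest in replicate 3, as Il4ra-201 was (60.7, 42.6 and 34.6 TPM). The summed TPM of Il4ra was lowest in WT replicate 2 (255, 199 and 217 TPM in WT). Which transcripts those values count was not tested. The 133 genes called became 753 with DESeq2, 60 with counts scaled from TPM, 228 without a filter, 4 with limma on the authors' log2 CPM, 17 and 1 on log2 TPM in limma (pseudocounts 1 and 0.1), 1688 with replicate 1 as a term, 1153 with replicates 2 and 3 alone, 2753 at an unadjusted p under 0.05, and 2 to 316 with one sample left out (2, 2 and 3 when the sample was WT 2, WT 3 and Cul5 cKO 3, 45 for Cul5 cKO 2 and 316 for WT 1). The 0 receptor genes called became 1 with DESeq2, 2 with replicate 1 as a term and 1 at an unadjusted p under 0.05, and stayed 0 with any one sample left out. The 3 pathway genes called became 7 with DESeq2, 14 with replicate 1 as a term, 9 with replicates 2 and 3 alone, 17 at an unadjusted p under 0.05, 1 and 0 on log2 TPM in limma with these pseudocounts, 0 with limma on the authors' log2 CPM, and 0 to 5 with one sample left out (0 without WT replicate 2 or 3). The cause of these shifts was not tested.

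Calls were gained by Il4ra with replicate 1 as a term (-0.26) and by Il9r with DESeq2 (-1.54) and with replicate 1 as a term (-1.46). Il2rg, near 0, turned to -0.040 with library size alone, -0.0037 in the authors' log2 CPM, -0.024 on both log2 TPM scales, -0.0068 with replicate 1 as a term and -0.10 to 0.15 with one sample left out. Il2rb turned to -0.0021 with replicates 2 and 3 alone, Il21r to 0.064 in the authors' log2 CPM, and Il15ra ranged from -0.039 to 0.286 with one sample left out. The ratio of gamma chain partners to Il2rg ranged from -0.34 to 0.067 (log2), the share of Il2rb-201 from -1.95 to 3.87 percentage points and that of Il7r-201 from -19.4 to 0.219, and that of Il4ra-205 turned to -1.15 with estimated counts in place of TPM.

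With the replicate number as a block, 848 genes, 1 receptor gene (Il9r, -1.48) and 8 pathway genes were called, and Il2rg was -0.0064. The labels do not say that numbers mark a shared mouse or day, and same-numbered samples had correlated deviations of 0.370, 0.206 and 0.0245, so the numbers were not taken as pairs; Cul5 cKO replicate 3 was closer to WT replicate 2 (0.201).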

Other observations

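Socs7, a SOCS-box gene among the brakes that was too low to be tested, was listed at 46.5 CPM in WT replicate 3, the shallow library, whereas no other sample exceeded 1.09 CPM. It was singled out after its values were seen.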
